A study of Mus musculus with 12 samples.

Results

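The peaks described here are the N6-methyladenosine (m6A) regions listed in 4 IP libraries of J1 mouse embryonic stem cells, 2 with a scramble shRNA and 2 with an shRNA against Mettl14. All rows of the 2 deposited tables that set Mettl14 knockdown beside scramble were taken, 16536 of the 32586 rows that the series holds in 4 tables. Each table pairs 1 scramble with 1 knockdown library, and the pairs are called set 1 and set 2 here. The scramble libraries listed 7886 and 5438 peaks and the Mettl14 knockdown libraries 5717 and 4367. Both groups were J1 cells kept on irradiated embryonic fibroblast feeders with serum and LIF. Both were infected with lentivirus carrying the shRNA and selected with puromycin, so the controls share the infection and the selection. The labels do not say whether the libraries of a group came from separate infections, and the spread between sets may therefore be technical.

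m6A is a methyl mark on adenosines inside mRNA. It is written in the nucleus by a complex in which Mettl3 is the catalytic subunit and Mettl14 its partner that holds the RNA, with Wtap and other proteins as further subunits. The mark is known to lie in the sequence context GGAC, in long internal exons and around stop codons, and Ythdf proteins bind it. Fto and Alkbh5 can remove it. Mettl14 had no listed peak in any of the 4 libraries, and the tables give enrichment of IP over control rather than RNA level, so the knockdown itself was not checked. A peak is listed only where the RNA is present and the antibody enriches it. In such bulk RNA fewer cells with a transcript and less of it in each cell cannot be told apart.

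The sites below show GGACT, in capitals, with the bases around it, and whether they are methylated was not tested. They are the GGACT nearest to the peak centre in peaks that were lost, kept, lower, higher or new in both sets, read 5′ to 3′ on the transcript strand from GENCODE release M21 (mm10). They were chosen among peaks that hold the motif, and some lie far from the peak centre, 657 nt at Inhbb and 207 nt at Evi5l. Mafa, Nynrin, Synpo2l, Snrk, Gdf6, Ghr, Shisa6, Foxa2 and Tmem200a, also described below, hold no GGACT in their peaks.
Evi5l, lost, 3′ UTR, chr8:4207081-4207109, + strand: ggggaggccccaGGACTtgttaataagca
Gna15, lost, coding, chr10:81502908-81502936, − strand: caaggacgtgcgGGACTcggtgctggccc
Tnrc6c, kept, coding, chr11:117722049-117722077, + strand: agggaacgcctgGGACTcagggcctcctg
Irs2, kept, coding, chr8:11005750-11005778, − strand: ctatcgctagagGGACTgcagacccttcc
Egfr, lower, 3′ UTR, chr11:16911878-16911906, + strand: tataaaatgtctGGACTttctagaatccc
Sertad4, lower, coding, chr1:192846690-192846718, − strand: ctcccaccatgtGGACTttgacataggca
Inhbb, higher, 3′ UTR, chr1:119416397-119416425, − strand: gccctttgctggGGACTtcctcctggtgt
Dact1, higher, coding, chr12:71317988-71318016, + strand: caggccggccttGGACTtcaaaagcgagg
Zfp281, new, coding, chr1:136627852-136627880, + strand: accatagagtaaGGACTtcagtgtcagat
En1, new, coding, chr1:120607124-120607152, + strand: ctcatggcccagGGACTgtacaaccactc

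Over all transcript peaks, the shares of lost and kept peaks with GGACT lay close together. It stood in the 150-nt window around the centre of 27.2% of kept and 26.8% of lost scramble peaks in set 1, and of 26.5% and 25.2% in set 2, counting peaks on transcripts. The 610 windows lost in both sets held it in 23.6% (95% Wilson interval 20.4 to 27.1) and the 2350 kept in both in 26.4% (24.6 to 28.2). New peaks held it in 28.8% and 25.3%. All 150-nt windows of the transcripts of listed genes held GGACT in 15.4%, and its reverse complement AGTCC in 13.6%. AGTCC stood in 14.1% of kept and 14.9% of lost windows in set 1, near its background. Within the stop codon window, which reaches 200 nt either side of the stop codon, the GGACT shares were 33.9% of kept and 29.1% of lost peaks in set 1, and 32.4% and 29.7% in set 2. In the 3′ UTR they were 29.3% of kept and 27.1% of lost peaks in set 1, and 33.7% (28.8 to 39.1) and 25.5% (20.8 to 31.0) in set 2. Peaks were described by these counts, and no test was run over them. Intervals for shares cover counting error only.

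After Mettl14 knockdown, a large share of the scramble peaks had no overlapping peak in the knockdown library of their set. Such peaks are called lost, and scramble peaks that overlap a knockdown peak on the same strand by at least 1 nt are called kept. In set 1, 3414 of 7886 scramble peaks were lost, 43.3% (95% Wilson interval 42.2 to 44.4). In set 2, 2495 of 5438 were lost, 45.9% (44.6 to 47.2). Knockdown peaks with no overlapping scramble peak, called new, numbered 1080 of 5717 (18.9%) and 1354 of 4367 (31.0%). The covered length was 5212 and 4254 kb in scramble and 3386 and 3063 kb in knockdown, so both knockdown libraries lay below both scramble libraries. An exact permutation test over the 4 libraries, two-sided, gave p = 0.333 for covered length, the smallest p that 2 against 2 libraries allow. The peak numbers themselves overlapped between the groups, since scramble set 2 listed 5438 and knockdown set 1 listed 5717.

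Libraries of the same group also differed in what they listed. Of the set 1 scramble peaks, 41.8% were absent from the set 2 scramble library, close to the 43.3% absent from the knockdown library of their own set. Of the set 2 scramble peaks, 17.4% were absent from the longer set 1 scramble list, against 45.9% from their own knockdown library. For knockdown peaks the shares absent from the other knockdown library were 41.2% and 25.5%. The part that this difference between lists of one group has in the lost share was not tested. The tables do not give the total reads of a library.

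Lost peaks were narrow. Their median width was 395.5 nt in set 1 and 497 nt in set 2, against 692 and 820 nt for kept peaks. The share lost was smaller at greater scramble peak widths in both sets. It was 78.1% and 83.1% for peaks of at most 200 nt, 47.4% and 57.4% at 401 to 600 nt, and 4.80% and 10.8% over 1500 nt. Lost peaks also had higher enrichment (IP over control within the peak), with medians of 23.4 and 24.2 against 15.6 and 14.7 for kept peaks. With scramble peaks cut into 4 equal bins of enrichment, 60.8% and 67.2% were lost in the highest bin and 35.1% and 34.9% in the lowest. Enrichment and width were linked, as median widths were 283.5 and 345 nt in the highest bin and 812 and 984.5 nt in the lowest. Whether enrichment went with loss at equal width was not tested. Lost scramble peaks held a median of 39 and 53 tags. Knockdown peaks that overlapped a scramble peak held a median of 69 and 96 tags, in other libraries. Kept scramble peaks carry no tag counts, so lost and kept scramble peaks cannot be compared in tags.

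**Figure D1:**
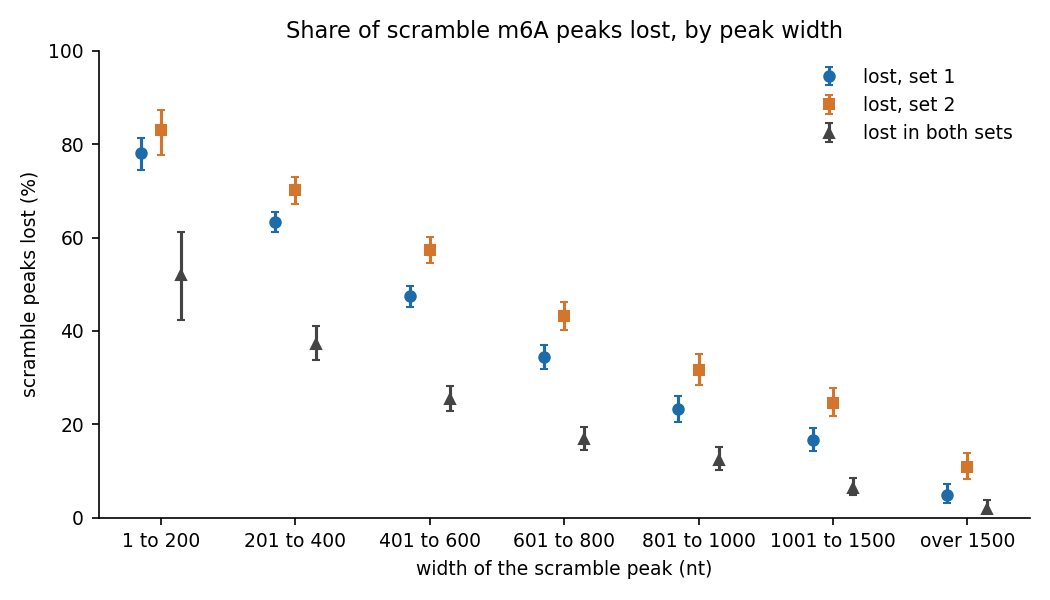
Share of scramble peaks lost (vertical axis, %) in 7 bins of scramble peak width (horizontal axis, nt), for set 1, set 2 and both sets, with 95% Wilson intervals as bars. The share lost in both sets is taken over the 4591 peaks found in both scramble libraries and runs from 51.9% in the narrowest bin to 1.92% in the widest.

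Taken over all widths, peaks in coding sequence had the lowest share lost of the position classes. Of these 2990 and 2321 peaks, 31.3% (29.7 to 33.0) and 30.7% (28.8 to 32.6) were lost. Within the stop codon window the shares were 40.7% and 48.9%, in the rest of the 3′ UTR 40.2% and 46.3%, and in the 5′ UTR 47.5% and 58.2%. Peaks with a listed gene but a centre outside the exons of the transcript used were lost in 61.0% and 62.9%. That class also takes peaks whose listed gene is absent from GENCODE M21. For peaks with no listed gene the shares were 67.7% and 72.5%. Peaks with no listed gene were also the narrowest, with medians of 294.5 and 368 nt against 707 and 815 nt in coding sequence. At an equal width of 401 to 600 nt, the shares were 42.1% and 49.6% in coding sequence and 61.1% and 66.1% for peaks with no listed gene. Stop codon peaks of that width were lost in 43.3% and 58.3%. Against stop codon peaks of the same width bin, coding peaks had the higher share lost in 4 of the 7 bins in set 1, such as 78.6% against 70.1% at up to 200 nt, and the lower share in all 7 bins in set 2.

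**Figure D2:**
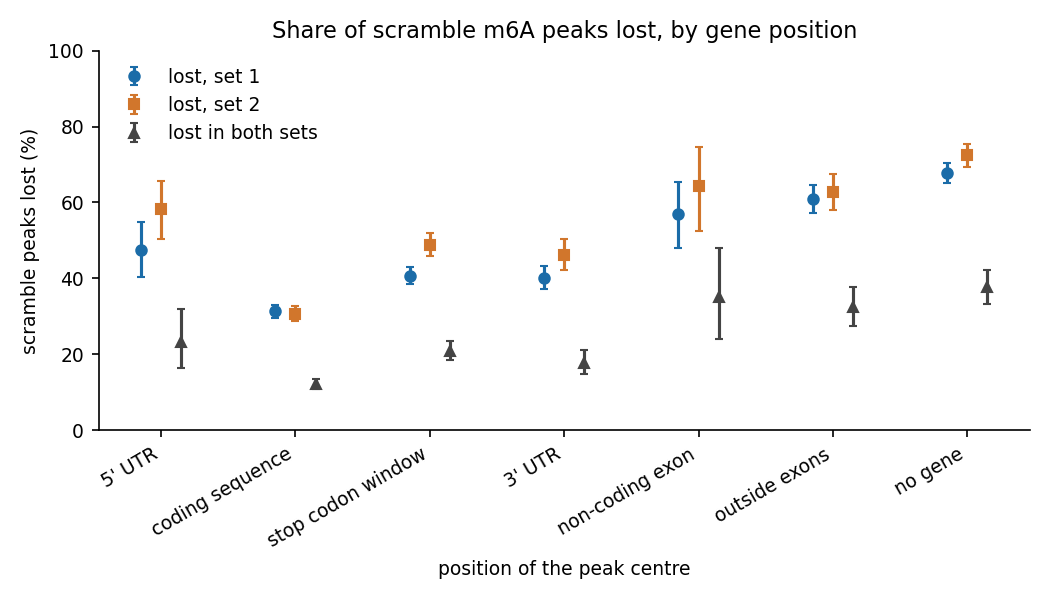
Share of scramble peaks lost (vertical axis, %) by the position of the peak centre in the gene (horizontal axis), for set 1, set 2 and both sets, with 95% Wilson intervals as bars. Coding sequence is lowest in each of the 3 series, at 31.3%, 30.7% and 12.1%.

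Within coding sequence, over all widths, the share lost differed between kinds of exon. In the last exon 24.96% and 22.2% of coding peaks were lost, and in internal exons longer than 400 nt 33.1% and 32.1%. In internal exons of at most 400 nt 74.3% of 113 and 82.3% of 62 peaks were lost, and in first exons 30.9% and 38.9%. Peaks in these short internal exons were narrow, with median widths of 325 and 324.5 nt against 708 and 791 nt in longer internal exons. Of all coding peaks of 201 to 400 nt, 57.9% and 55.6% were lost. The part of width in the exon shares was not tested. The stop codon window made up 20.7% of lost and 23.0% of kept peaks in set 1, and 20.8% and 18.5% in set 2. That difference had opposite signs in the sets, and with windows of 100 and 400 nt its sign changed in set 1 and set 2 respectively, so no direction is read from it.

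Few lost peaks lay beside a knockdown peak: 1.93% and 1.804% had one within 100 nt. Of lost peaks on a listed gene, 30.3% and 23.1% lay on a gene that kept another scramble peak. Kept peaks were mostly called narrower after knockdown. Over the 4128 and 2754 kept peaks paired with a single knockdown peak, the knockdown call was narrower in 76.5% and 71.0%, and the median width ratio was 0.896 and 0.927. The ratio was lowest in the 3′ UTR among the 4 classes on coding transcripts, at 0.857 and 0.862.

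Across both sets, 4591 set 1 scramble peaks overlapped a set 2 scramble peak. Of these, 877 (19.1%, 95% Wilson interval 17.99 to 20.3) were lost in both sets and 2630 (57.3%) were kept in both. A further 254 were lost in set 1 alone and 830 in set 2 alone. The peaks lost in both had median widths of 487 and 524 nt and median enrichments of 17.9 and 21.6. Those kept in both had 822 and 881 nt and 14.8 and 13.8. Coding sequence held 28.8% of the peaks lost in both and 55.0% of those kept in both. Peaks with no listed gene made up 18.8% and 5.74%.

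By gene, both scramble libraries listed a peak on 3453 genes. Of these, 515 (14.9%) lost all their scramble peaks in each set, and 1569 (45.4%) kept all of them in each. In 419 of the 515 there was a single scramble peak in each set. A gene kept in set 1 and lost in set 2 was more frequent, at 490 genes, than the reverse, at 92. Genes with peaks in knockdown alone in both sets numbered 110. Within a set, 33.2% of 5043 and 36.8% of 3744 genes lost every scramble peak.

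The 8 peaks lost in both sets with the highest authors' peak scores lay on Evi5l, Gna15, Mafa, Nynrin, Mmp28, Kcnj4, Gm14221 and 4930534B04Rik. Evi5l, which encodes a TBC-domain protein that acts on Rab GTPases, had its single peak at the stop codon (chr8:4206456-4207320, mm10, last of 20 exons). Its scramble enrichment was 44.0 with 111 tags in set 1 and 62.6 with 101 tags in set 2, and no knockdown peak overlapped it. Gna15, a G protein alpha subunit that couples receptors to phospholipase C, lost its stop codon peak (chr10:81502371-81503199), with enrichments of 29.5 and 25.3 and 168 and 118 tags in scramble. Mafa, a transcription factor of pancreatic beta cells, lost the peak over its single exon (chr15:75746359-75747979), with 27.7 and 27.7 and 175 and 130 tags. These 3 peaks were between 829 and 1621 nt wide in set 1, wider than the median kept peak.

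Nynrin lost a peak in its last exon (chr14:55871558-55872097) with scramble enrichments of 28.9 and 18.7. It still kept 4 of 6 and 1 of 3 scramble peaks. Mmp28 encodes a secreted metalloproteinase and Kcnj4 an inward rectifier potassium channel. The lost peaks named for Mmp28, Kcnj4, Gm14221 and 4930534B04Rik were classed as outside the exons of the transcript used. The Mmp28 peak (chr11:83440945-83441596) had scramble enrichments of 28.0 and 379, and it is the one among the 8 named lost peaks whose scramble values differ most between sets.

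Other sites went opposite ways in the sets. Celsr1, a cadherin of planar cell polarity, had a stop codon peak with scramble enrichments of 36.6 and 103. It was kept in set 1 at a scaled enrichment of 51.8 and lost in set 2. Parp14, an ADP-ribosyltransferase, had a 3′ UTR peak with scramble enrichments of 61.9 and 356, kept in set 1 at 20.3 over 22 tags and lost in set 2. Asb6 and Ankrd6 were lost in set 1 and kept in set 2, and 2310047M10Rik the other way.

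Enrichment could be compared over all 4 libraries at the 2603 sites with a peak in each. The authors multiply knockdown enrichment by a constant, 0.906 in set 1 and 0.777 in set 2, and the resulting value is called scaled enrichment here. At these sites the median log2 change of scaled enrichment, knockdown over scramble, was −0.06 in set 1 and −0.59 in set 2. Without the constants the medians were 0.08 and −0.22, so the sign of set 1 depends on them. In absolute size, the median log2 change was 0.41 in set 1 and 0.64 in set 2. Between the 2 scramble libraries the median absolute log2 difference was 0.36. The change was below 0 in both sets at 1277 sites (49.1%) and above 0 in both at 216 (8.30%). Without the constants these were 874 and 581. Changes in set 1 and set 2, which share no library, had Pearson's r = 0.218 and Spearman's rho = 0.255 across the sites, as a description over sites that share libraries. More than 2-fold lower sites were 254 (9.76%) in set 1 and 677 (26.0%) in set 2, and 120 in both. More than 2-fold higher sites were 171 (6.57%) and 49 (1.88%), and 17 in both.

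**Figure D3:**
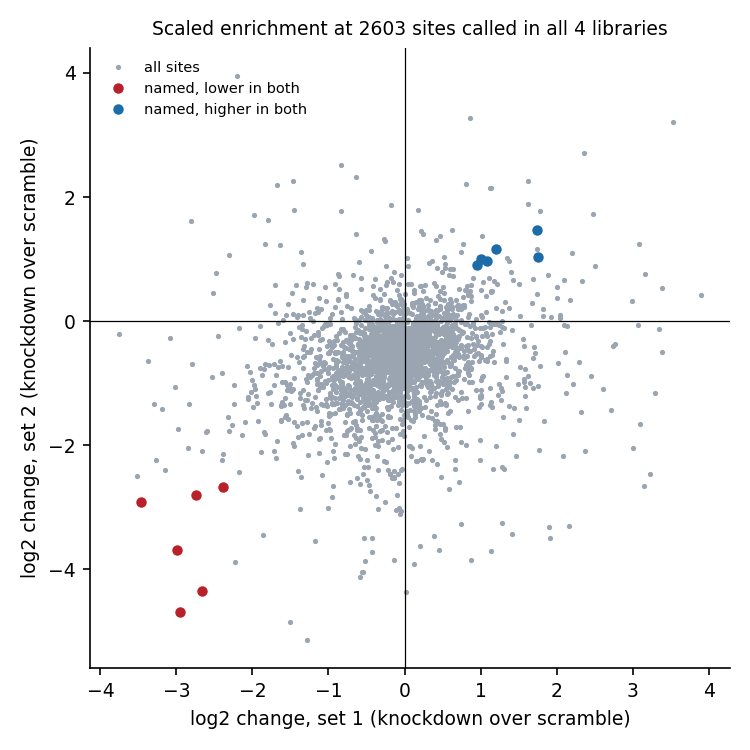
Log2 change of scaled enrichment, knockdown over scramble, in set 1 (horizontal) and set 2 (vertical) at the 2603 sites called in all 4 libraries, 1 grey point a site. The cloud is centred near 0 in set 1 and below 0 in set 2, the 6 named lower sites (red) lie far down on both axes, and the 6 named higher sites (blue) lie above 0 on both.

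With limma on log2 scaled enrichment, 2 libraries against 2, 1 of 2603 sites (0.0384%) passed a Benjamini-Hochberg adjusted p of 0.05. It was a coding-sequence peak of Lrrn4, which encodes a leucine-rich repeat neuronal membrane protein (chr2:132869935-132870313). Its enrichment was 48.3 and 19.4 in scramble and a scaled 7.60 and 4.54 in knockdown. Both knockdown values lay below both scramble values. Lrrn4 fell by 2.38 on the log2 scale (SE 0.54, adjusted p = 0.0242). The 4 calls were 379, 1400, 1018 and 1338 nt wide, in the same order, and the call ended without either scramble library or without knockdown set 2. With the table set as a replicate block, since each table pairs 2 libraries, 39 sites passed, 37 lower and 2 higher. Without the constants 10 sites passed lower and 3 higher. With each library centred on its median 0 passed lower and 3 higher. At an unadjusted p of 0.05, 253 sites (9.72%) passed, 238 lower and 15 higher.

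Next in rank was Smad1, a transducer of BMP signals, named here after its values were seen. Its stop codon peak (chr8:79339264-79339820) had enrichments of 29.4 and 19.9 in scramble and a scaled 5.94 and 5.80 in knockdown, with log2 changes of −2.30 and −1.78. It did not pass, at an adjusted p of 0.0573 (limma). Its knockdown calls were narrower than its scramble calls, 406 and 422 against 557 and 547 nt.

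Among sites with at least 20 tags in both knockdown libraries, 6 were ranked by the smaller of their decreases in the sets. A peak just past the stop codon of Egfr, a receptor tyrosine kinase bound by EGF (chr11:16911830-16912139), had enrichments of 161 and 128 in scramble and a scaled 14.5 and 17.1 in knockdown. Sertad4 had 208 and 156 in scramble and 26.2 and 12.2 in knockdown at a last-exon coding peak. Synpo2l, an actin-associated protein of muscle, had 162 and 245 in scramble and 20.97 and 9.52 in knockdown. At Egfr, Sertad4 and Synpo2l both knockdown values lay far below both scramble values, and the ranking fixed that order within each set. Sites more than 2-fold lower had median scramble enrichments of 44.4 and 25.4, against 14.8 and 13.8 over all 2603 sites. Those more than 2-fold higher had 20.5 and 24.6.

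Itpkb, a kinase of inositol trisphosphate, had a coding peak (chr1:180332995-180333902) with 170 and 54.2 in scramble and 25.4 and 7.77 in knockdown. Itpripl2 had 145 and 274 in scramble and 23.0 and 13.5 in knockdown. Rin3, a guanine nucleotide exchange factor for Rab5, had 201 and 108 in scramble and 38.5 and 17.0 in knockdown. In all 6 of these genes the knockdown call was wider than the scramble call in both sets, by 1.09 to 2.86 times. The part of the called widths in these changes was not tested at single sites. Across the 2603 sites the width ratio and the log2 change had r = −0.125 in set 1 and −0.170 in set 2. Of sites more than 2-fold lower 33.9% and 32.9% were called wider after knockdown, against 24.2% and 27.1% of all 2603. Synpo2l was next after Smad1 with an adjusted p of 0.0829 (limma), and none of the 6 passed.

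With the same minimum of 20 tags, 6 sites were ranked by the smaller of their increases in the sets. Among them Fmn2 was less than 2-fold higher in set 2, and Armc8 in both sets. Without that minimum 17 sites were more than 2-fold higher in both sets. Inhbb, the beta B subunit of inhibin and activin, had a 3′ UTR peak (chr1:119415961-119418175) with 5.68 and 5.45 in scramble and a scaled 18.9 and 15.1 in knockdown. Its knockdown calls were 664 and 1143 nt wide against 2215 and 2028 nt in scramble. Dact1, a Dishevelled-binding antagonist of Wnt signalling, had a last-exon peak with 32.9 and 24.6 in scramble and 75.9 and 54.9 in knockdown. At Inhbb and Dact1 the knockdown values lay above the scramble values, over narrower calls.

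Snrk, a kinase of the AMPK-related family, had 42.6 and 13.8 in scramble and 144 and 28.3 in knockdown. Arid5a, an ARID-domain protein, had 23.7 and 13.4 in scramble and 47.6 and 26.8 in knockdown, and Fmn2, an actin-nucleating formin, had 32.5 and 14.3 in scramble and 68.7 and 27.9 in knockdown. Armc8, a subunit of a ubiquitin ligase complex, had 20.4 and 19.4 in scramble and 39.7 and 36.2 in knockdown. Its peak was classed as outside the exons of the transcript used. At Snrk and Fmn2 the set 2 knockdown value lay below the set 1 scramble value, so these groups overlapped. Of sites more than 2-fold higher, 86.0% and 87.8% were called narrower after knockdown, against 75.1% and 71.3% of all 2603.

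**Figure D4:**
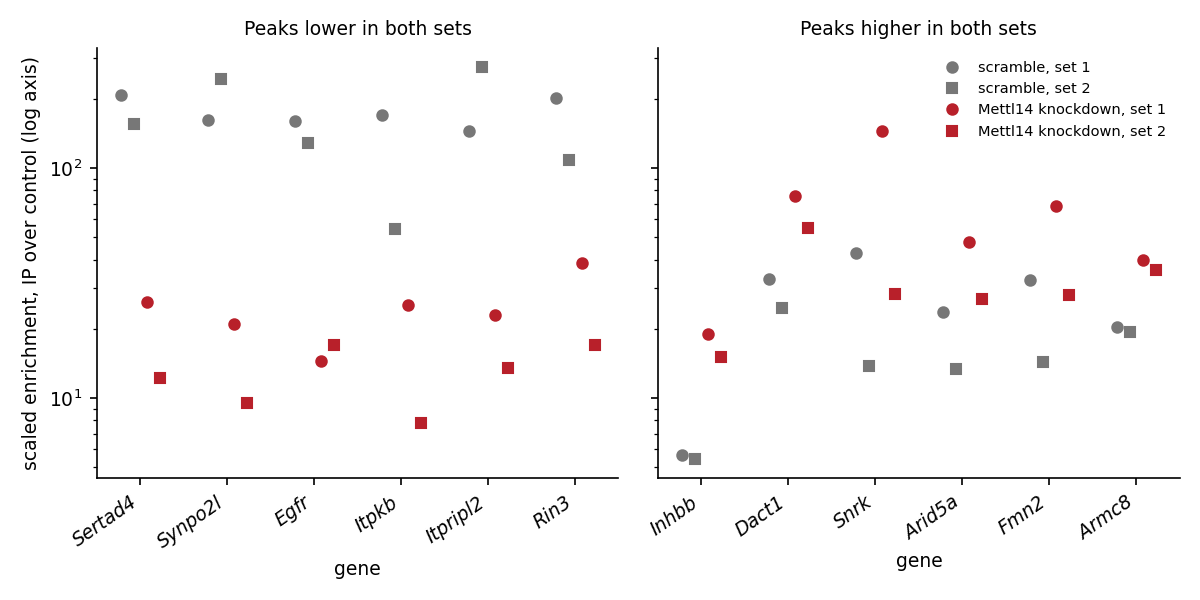
Scaled enrichment (log axis) in each of the 4 libraries at the 6 sites lower in both sets (left) and the 6 higher in both (right), 1 point a library. The lower sites run from 54.2 to 274 in scramble and from 7.77 to 38.5 in knockdown, and the higher sites were chosen for the opposite order within each set.

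Kept peaks were ranked by their knockdown scores, and the 5 highest lay in coding exons of 2601 to 4620 nt. Cic, a transcriptional repressor that is inactivated by receptor tyrosine kinase signalling, had a 3192-nt scramble peak (chr7:25270699-25273890), with 13.8 and 15.8 in scramble and a scaled 23.0 and 14.1 in knockdown. Tnrc6c, an Argonaute partner in miRNA silencing, had 5.97 and 7.43 in scramble and 8.82 and 8.30 in knockdown over 741 and 759 tags. Myst4, a histone acetyltransferase, had 4.34 and 4.37 in scramble and 7.26 and 4.99 in knockdown. Tnrc6c and Myst4 were higher than scramble in both sets, with log2 changes of 0.56 and 0.16 and of 0.74 and 0.19. Dido1 had 11.0 and 8.83 in scramble and 11.3 and 5.65 in knockdown.

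New peaks were narrower and thinner than shared ones, with median widths of 227 and 311 nt against 541 and 689 nt. They held a median of 15 and 27 tags, and 58.7% and 38.8% of them held fewer than 20. New peaks that overlapped between sets numbered 208, which was 19.3% of the set 1 and 15.3% of the set 2 new peaks, on 155 genes. Of the new peaks of set 2, 40.5% overlapped a scramble peak of set 1, and of those of set 1, 16.2% overlapped one of set 2. Of the 208, 96 lay in coding sequence, 34 in the stop codon window and 42 had no listed gene.

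The 8 new peaks named for the highest scores in both sets are given next. Gdf6, a BMP-family ligand, had a stop codon peak (chr4:9859974-9860379) with deposited enrichments of 268 and 231 over 27 and 36 tags. Ghr, the growth hormone receptor, had a last-exon peak (chr15:3319961-3320610) with 45.25 and 45.5 over 54 and 68 tags. En1, a homeobox factor of the midbrain and limb, had a stop codon peak (chr1:120606977-120607450) with 25.9 and 74.5 over 56 and 63 tags. Gdf6, Ghr and En1 had no scramble peak in either set. Xkr4 had 24.2 and 41.5, Shisa6, an auxiliary subunit of AMPA receptors, 73.2 and 67.0, and Tmem200a 16.6 and 19.5. Zfp281, a zinc finger factor of the pluripotency network, had 2 new peaks and no scramble peak, and the one near its stop codon (chr1:136627386-136627957) had 11.2 and 8.81 over 105 and 108 tags. Foxa2, a factor of endoderm, had 1 new peak in each set beside 1 kept peak, at enrichments of 13.3 and 16.0.

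Of the m6A machinery, 12 of 23 genes had a listed peak. On them 5 of 16 scramble peaks were lost in set 1 and 5 of 14 in set 2, beside 43.3% and 45.9% of all peaks. Their scramble peaks had median widths of 896 and 764.5 nt, beside 538 and 651.5 nt for all, and the part of width was not tested. Alkbh5, a demethylase, lost its single coding peak in both sets. Wtap lost a coding peak (chr17:12967381-12968223) with scramble enrichments of 6.02 and 5.55, and kept another peak that lies outside the exons of the transcript used. The other writer subunits differed. Rbm15 and Cbll1 kept their peaks in both sets, 1110037F02Rik (Virma) lost 1 of 2 and 1 of 1, and Zc3h13 kept 2 of 2 in set 1 and had only a new peak in set 2. Rbm15, an RNA-binding subunit, had 9.75 and 7.02 in scramble and a scaled 7.31 and 3.63 in knockdown. The readers Ythdf1 and Ythdf3 kept theirs, and Ythdf2 kept 1 of 2. Ythdf3 had 10.5 and 7.64 in scramble and 13.8 and 5.97 in knockdown. Mettl3 had no listed peak.

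Most peaks on pluripotency genes were kept. Of 17 and 15 scramble peaks on the list, 1 was lost in each set (5.88% and 6.67%), beside 43.3% and 45.9% of all peaks. Of the 13 genes listed in both scramble libraries 11 kept every peak, beside 45.4% of all such genes. The scramble peaks on the list had median widths of 1628 and 1169 nt, with a range of 631 to 2420 nt in set 1 and 650 to 2514 nt in set 2, beside medians of 538 and 651.5 nt for all scramble peaks. The part of width in these counts was not tested. Sox2, a core factor of pluripotency, had a 2326-nt scramble peak, and its 4 values were 2.96 and 3.30 in scramble and a scaled 4.47 and 3.07 in knockdown. Tet2, which oxidises 5-methylcytosine in DNA, had 4.81 and 4.59 in scramble and 12.9 and 7.30 in knockdown, higher in both sets. Gbx2, a homeobox factor, had 5.12 and 4.78 in scramble and 9.34 and 6.73 in knockdown at its stop codon peak, higher in both. Nr5a2, a nuclear receptor, had 13.2 and 22.8 in scramble and 19.6 and 10.2 in knockdown, and its groups overlapped. Klf4, with 4.58 and 3.79 in scramble and 9.88 and 6.14 in knockdown, and Sall4 also kept their peaks.

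**Figure D5:**
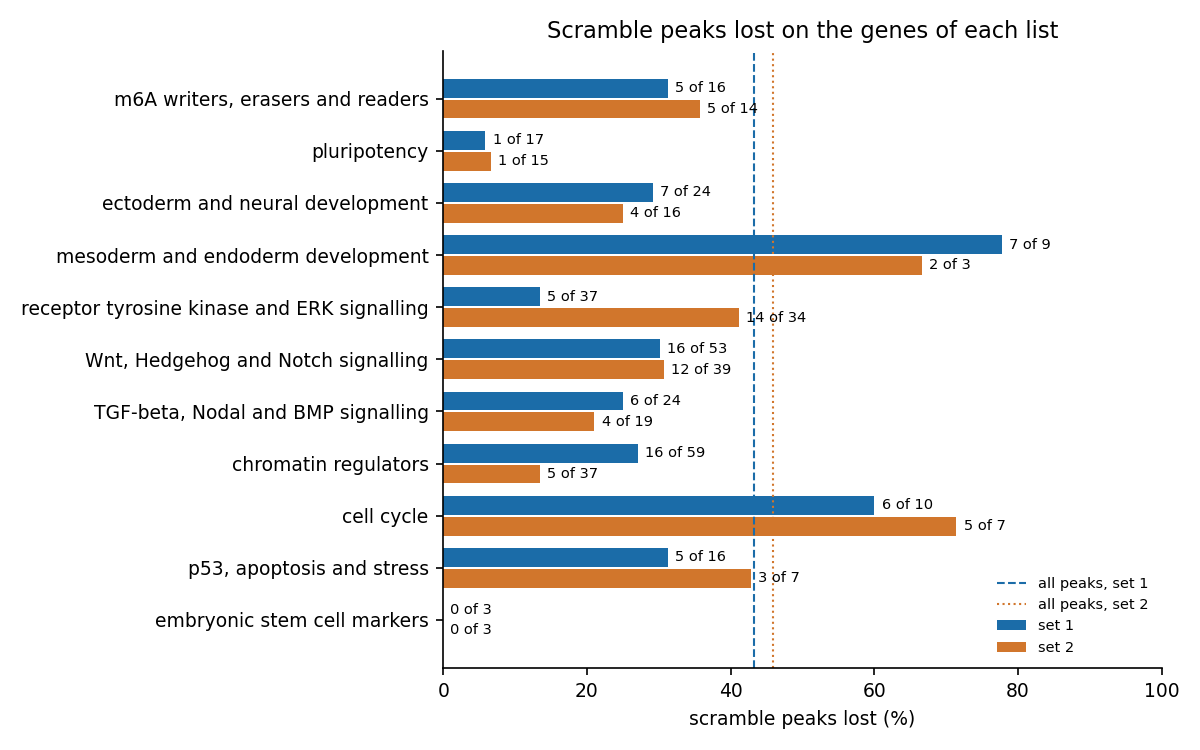
Share of scramble peaks lost (horizontal axis, %) on the genes of each list with at least 3 scramble peaks in each set, set 1 in blue and set 2 in orange, with the counts at the bars and the share of all peaks as vertical lines. Pluripotency lies at 1 of 17 and 1 of 15, and mesoderm and endoderm at 7 of 9 and 2 of 3.

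Of the embryonic stem cell markers 4 of 10 had a listed peak, and their 3 scramble peaks were kept in both sets. Of the feeder fibroblast markers 4 of 16 had one. On them 1 of 4 and 2 of 2 scramble peaks were lost, beside 43.3% and 45.9% of all peaks. Since a peak needs the mark as well as the RNA, these lists say little of how many feeder cells each library held.

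On the mesoderm and endoderm list 7 of 9 and 2 of 3 scramble peaks were lost, beside 43.3% and 45.9% of all peaks. The median widths of all scramble peaks on the list were 307 and 253 nt. Gsc, a homeobox factor of the organizer, lost a stop codon peak with scramble enrichments of 208 and 77.5 over 23 and 18 tags. Sox7, a factor of primitive endoderm, lost a 3′ UTR peak with 138 and 176.5 over 17 and 20 tags. Foxc1, a forkhead factor of mesoderm, was listed in knockdown alone in both sets. The scramble peaks of Gsc and Sox7 were at most 331 nt wide, and of all peaks of 201 to 400 nt 63.4% and 70.2% were lost.

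Ectoderm and neural genes lost 7 of 24 (29.2%) and 4 of 16 peaks, beside 43.3% and 45.9% of all. Scramble peaks on this list had median widths of 648 and 662.5 nt, beside 538 and 651.5 nt for all. The part of width was not tested. Pou3f1, a POU factor of neural progenitors, had a coding peak with 23.0 and 19.1 in scramble and a scaled 11.6 and 5.68 in knockdown. Sox11, a factor of neural differentiation, had 19.5 and 15.2 in scramble and 6.52 and 5.22 in knockdown. Foxd3 had 15.2 and 9.60 in scramble and 10.7 and 6.60 in knockdown. The knockdown values of Pou3f1 and Sox11 lay below both scramble values, and those of Foxd3 overlapped them. The coding peak of Sox4 had 10.3 and 11.6 in scramble and 11.0 and 5.97 in knockdown, lower in set 2 alone. Its 3′ UTR peak had 19.6 and 16.5 in scramble and 15.2 and 8.22 in knockdown, lower in both. Fgf5 and Pou3f2 were listed in knockdown alone in both sets.

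Receptor tyrosine kinase and ERK genes lost 5 of 37 peaks (13.5%) in set 1 and 14 of 34 (41.2%) in set 2. Over all peaks the lost shares were 43.3% and 45.9%. Scramble peaks on this list had median widths of 725 and 686 nt, beside 538 and 651.5 nt for all. The part of width was not tested. Without Fgfr2, a receptor for fibroblast growth factors that lost 1 of 5 and 6 of 8, the counts were 4 of 32 and 8 of 26. Fgfr2 was named after its counts were seen. Irs2, an insulin receptor substrate, kept each of its 4 and 3 scramble peaks. Those in its coding sequence lay under 1 knockdown call of 4050 nt in each set, and the one nearest the stop codon had 11.5 and 22.1 in scramble and a scaled 8.51 and 6.00 in knockdown. Spry1, a feedback inhibitor of the ERK pathway, had 14.8 and 15.0 in scramble and 13.9 and 7.49 in knockdown. Spry2, another such inhibitor, had 4.70 and 4.36 in scramble and 4.91 and 3.85 in knockdown. Igf1r had 41.7 and 18.8 in scramble and 30.9 and 18.2 in knockdown at its stop codon, and these overlapped.

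Wnt, Hedgehog and Notch genes lost 16 of 53 and 12 of 39 peaks, beside 43.3% and 45.9% of all. Scramble peaks on this list had median widths of 667 and 877 nt, beside 538 and 651.5 nt for all. The part of width was not tested. Every peak of Lrp5, Sufu and Notch4 was lost in both sets. Gli3, a transcription factor of the Hedgehog pathway, kept a peak with 43.6 and 16.7 in scramble and 20.6 and 10.3 in knockdown. The frizzled receptor Fzd5 had 9.01 and 7.26 in scramble and 14.1 and 7.73 in knockdown, and Fzd7 8.98 and 5.91 in scramble and 6.18 and 5.16 in knockdown. Znrf3, a ubiquitin ligase that removes frizzled receptors, had 25.4 and 19.7 in scramble and 17.98 and 12.9 in knockdown, below scramble in both libraries.

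TGF-beta, Nodal and BMP genes lost 6 of 24 and 4 of 19 peaks (21.1%), beside 43.3% and 45.9% of all. Scramble peaks on this list had median widths of 707.5 and 892 nt, beside 538 and 651.5 nt for all. The part of width in these counts was not tested. Of the 13 genes listed in both scramble libraries 10 kept every peak, beside 45.4% of all such genes. Smad6, an inhibitory Smad, and Bmpr1b, a BMP receptor, lost every peak in both sets. Furin, a protease that processes TGF-beta family ligands, had 13.3 and 9.90 in scramble and 7.11 and 5.52 in knockdown. Bmp4 had 10.6 and 9.16 in scramble and 20.7 and 7.30 in knockdown, opposite in the sets. Acvr2a, an activin receptor, had 43.3 and 29.8 in scramble and 35.1 and 34.9 in knockdown.

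Chromatin regulators lost 16 of 59 (27.1%) and 5 of 37 (13.5%) peaks, beside 43.3% and 45.9% of all. Scramble peaks on this list were wide, with medians of 794 and 1231 nt beside 538 and 651.5 nt for all. The part of width in these counts was not tested. Of the 21 genes listed in both scramble libraries none lost every peak in both, beside 14.9% of all such genes. The acetyltransferase Crebbp had 8.58 and 6.68 in scramble and 9.40 and 6.16 in knockdown, and its relative Ep300 had 7.70 and 7.01 in scramble and 9.53 and 6.33 in knockdown. The demethylase Kdm6b had 15.4 and 12.4 in scramble and 10.7 and 10.8 in knockdown. Arid1b, a subunit of SWI/SNF remodelling complexes, had 12.7 and 10.5 in scramble and 12.1 and 6.56 in knockdown. Crebbp, Ep300 and Arid1b had knockdown values that overlapped the scramble values. Jarid2, a partner of Polycomb complex 2, was listed in knockdown alone in both sets.

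Cell cycle genes had few peaks and lost 6 of 10 and 5 of 7 (71.4%), beside 43.3% and 45.9% of all. Wee1, a kinase that holds back entry into mitosis, lost a coding peak with scramble enrichments of 6.63 and 6.05 over 200 and 243 tags. Rbl2, a member of the retinoblastoma family, lost a stop codon peak with 15.9 and 176.5 over 47 and 28 tags. E2f3 kept a 3′ UTR peak with 18.5 and 12.3 in scramble and a scaled 27.8 and 10.1 in knockdown. Genes of p53, apoptosis and stress lost 5 of 16 and 3 of 7 peaks, beside the same 43.3% and 45.9% of all. Among them Sesn1, a stress-induced regulator of mTORC1, had 24.4 and 35.7 in scramble and 38.1 and 64.1 in knockdown, and Gadd45b lost its single peak in both sets. Mdm2, Sesn2 and Bbc3 kept their peaks, with set 1 values higher and set 2 values lower than scramble. None of the 30 cytosolic ribosomal protein genes had a listed peak, and of the 25 housekeeping and cytoskeleton genes Gusb alone did.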

How the data were processed

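The deposited values come from m6A immunoprecipitation of fragmented poly(A) RNA, per the labels' protocols. Per the submitters' processing notes, the tools were Picard 1.74, SAMtools 0.1.18, TopHat2 2.0.6, Bowtie 0.12.7, cutadapt 1.1 and CASAVA 1.8.2, with genome build mm10. The sources used here give no version for the peak caller. A peak has, per the file headers, its tag count, a score (minus 10 log10 of the p-value), an FDR in percent, a fold enrichment and a scaled fold, made by the authors with 1 constant per table. The deposited signed fold score gave the log2 change and the scramble enrichment of kept peaks. Scramble scores, tags and FDR exist for lost peaks alone, so kept peaks were ranked and filtered on knockdown values.

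Overlaps of at least 1 nt on the same strand were recomputed in Python 3.11.15 with pandas 2.3.3 and SciPy 1.17.1, and they matched the authors' marking for every peak. Peak centres were placed on 1 transcript per gene, that with the longest coding sequence, in GENCODE M21, which holds 5800 of the 5867 listed genes. Intervals are 95% Wilson intervals. Set 1 scramble peaks anchored the 2603 sites tested with limma 3.58.1 (R 4.3.3, eBayes with trend) without a pseudocount, since no enrichment is 0. On data simulated with 1 common spread for all sites, the same fit recovered 100% of 200 sites changed by 3 on the log2 scale. This checks the code and does not give the power at the real sites, whose spreads differ. Synpo2l changed by −3.82 in the real data and did not pass. Sites were named by score rank within each class (lost, kept, new, opposite) and by the smaller change of both sets, with at most 4 members a list given values. Chromosome 18 was left out of the names. A further site that the rule names is not reported here. Members, lists and tests were chosen with earlier results of these data known. Alternatives were other overlaps, strands, windows, scalings, filters and leaving out a library or a table.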

Additional observations from a re-analysis of the deposited data

How the results depend on the processing

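Across the alternatives 57 values stayed within the limits used, 38 moved beyond them and 3 changed sign. The limit was the spread between the sets for shares, width ratios and median changes, and a fixed fold for counts. For the receptor tyrosine kinase list it was the Wilson interval. A further 24, from the authors' own marking and a minimum score of 100, are equal to the main values by construction and show nothing about stability. Counting overlap differently, ignoring strand or allowing a 100-nt gap moved no share, count or width ratio by more than the limits used. Filters on both libraries could not be run, because kept scramble peaks carry no tags, score or FDR. Knockdown peaks alone were therefore filtered, as chosen after seeing the data. Removing knockdown peaks can only raise the lost share and the counts of lost peaks and of genes losing every peak. It can only lower the counts of new peaks and of knockdown-only genes. These directions were fixed by the filter and say nothing about firmer peaks. With at least 20 knockdown tags the lost share was 50.1% and 48.7%, the new share of set 1 9.89%, the width ratio of lost over kept peaks 0.509 and 0.575 (0.572 and 0.606 without the filter), new peaks in both sets 117 and genes with peaks in knockdown alone 61. With FDR of at most 1% the lost share was 63.1% and 75.2%, the new share 6.40% and 7.60%, the set 2 width ratio 0.568, peaks lost in both 1944, new in both 20, genes losing every peak in both 1245 and knockdown-only genes 12. On coding transcripts alone the width ratio was 0.627 and 0.656. The stop codon share of lost minus kept peaks was −2.34 and 2.35 percentage points, became 0.41 in set 1 with a 100-nt window, and −9.35 and −4.29 with a 400-nt window. Without the scaling constants the median log2 change of kept peaks in set 1 was 0.080.

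With 1 table left out, each count for both sets becomes that of the remaining table alone, without the need for a repeat. These counts ran from 2495 to 3414 lost peaks and 1080 to 1354 new peaks. Genes losing every peak ran from 1378 to 1673 and knockdown-only genes from 401 to 651. They are among the values that moved, and their rise shows nothing about stability. The limma count of 1 became 39 (37 lower, 2 higher) with the table set as a replicate block, as the tables pair the libraries; deviations within a pair correlated at 0.104. It was 13 without the constants, 3 with centring, 9 without the trend, and 0 when anchored on set 2, with 1 overlapping peak in each library, or with all widths within 1.2 times (803 sites, chosen after seeing the data). With 1 library left out it ran from 0 to 108, the latter without knockdown set 1. With 1 library in a group, that library is assumed to vary like the others. The cause of these differences was not tested.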
